A study of Mus musculus with 8 samples.

Results

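The genes described here were 10 components and transcriptional targets of the Hippo pathway, namely Ccn1, Ccn2, Amotl2, Ajuba, Lats1, Lats2, Yap1, Wwtr1, Tead1 and Tead2, out of 18194 genes with a probe set of their own on the array. They were chosen by name, with earlier results of these data known. Each was read from the probe set that was brightest on average over the 8 arrays. RNA of mouse yolk sacs at embryonic day 9.5 was hybridised to Affymetrix arrays in 2 sets of 2 groups, with 2 arrays in each group. In the gain-of-function set, EC-N1ICD yolk sacs carried the genotype Tie2 Tg/0; ROSA +/N1ICD, so that Cre removed a stop cassette and allowed the intracellular domain of NOTCH1 to be expressed, and the wild type group of the same cross was Tie2 0/0; ROSA +/+, both on strain C57BL6. In the loss-of-function set, EC-Rbpj-KO yolk sacs carried Tie2-Cre; Rbpj flox/flox on a mixed strain, which removes the DNA-binding partner of the NOTCH intracellular domain, and for their wild type group the labels give no genotype. The comparison asks how expression of the Hippo genes differs when Notch signaling in the Tie2 lineage is expanded or lost.

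Rbpj, the targeted gene, fell to 470 and 497 for EC-Rbpj-KO yolk sacs, against 984 and 919 for wild type (log2 change -0.98, limma adjusted p = 0.00866), a call that was lost without wild type replicate 1 (0.0760) or replicate 2 (0.0602). Whether its probe set lies in the deleted exons was not examined. The models have limits that bear on every value. Tie2-Cre acts in endothelial cells and also in blood cells, while the arrays measured RNA of the whole yolk sac, so fewer cells of a type and less RNA per cell cannot be told apart. The wild type yolk sacs carry no Tie2 transgene in the EC-N1ICD set, so the transgene itself is not controlled for there. In each set the sample names of both wild type yolk sacs and of mutant replicate 2 begin with 1 shared number, and that of mutant replicate 1 with another. The labels do not say whether this number marks a litter, and p-values measure only the spread between these samples.

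The Hippo pathway is a kinase cascade that limits organ growth and responds to cell contact, polarity and mechanical tension. The MST kinases activate LATS1 and LATS2, which phosphorylate the coactivators YAP and TAZ (encoded by Yap1 and Wwtr1) and so keep them out of the nucleus. Unphosphorylated YAP and TAZ enter the nucleus and bind DNA through the TEAD transcription factors, and Ccn1 and Ccn2 (also named Cyr61 and Ctgf) are the targets most often used to read that activity. In blood vessels YAP and TAZ are known to take part in sprouting and in the response to blood flow, and mice that lack Yap1 have defects of the yolk sac vasculature. The arrays measured mRNA, and neither phosphorylation nor the position of YAP and TAZ in the cell.

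All 10 genes gave a signal above the filter on low values. None of the 10 passed an adjusted p of 0.05 (limma, Benjamini-Hochberg over 10913 genes) in EC-N1ICD, where 0.596% of all genes tested did, or in EC-Rbpj-KO, where 4.96% did. At an unadjusted p under 0.05, 3 of the 10 were higher and 0 lower in EC-N1ICD (Ccn1, Ccn2 and Yap1), beside 12.0% of all genes in either direction. In EC-Rbpj-KO 1 was higher (Ajuba) and 2 were lower (Lats1 and Wwtr1), beside 19.9% of all genes. Both EC-N1ICD arrays lay above both wild type arrays for 5 of the 10 and below them for 0, where 23.7% of all genes lay above and 18.9% below. Both EC-Rbpj-KO arrays lay above theirs for 1 and below for 2, where 23.3% lay above and 27.5% below. Read against these shares, with no test of the list, the members' count at an unadjusted p under 0.05 was above the background in EC-N1ICD. In EC-Rbpj-KO that count was near the background. Of the genes in the EC-N1ICD count, Ccn1 and Ccn2 were also listed by the study from these same arrays. Of the counts of genes without overlap, the 5 of 10 above wild type in EC-N1ICD exceeded its share, while those in EC-Rbpj-KO did not. The median log2 change of the 10 genes was 0.38 for EC-N1ICD and 0.12 for EC-Rbpj-KO, beside medians over all genes of 0.01 for the first model and -0.02 for the second. The largest changes in EC-N1ICD were those of the 2 matricellular targets, Ccn1 and Ccn2, and the methods' t-test after Benjamini-Hochberg adjustment called no member either.

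**Figure D1:**
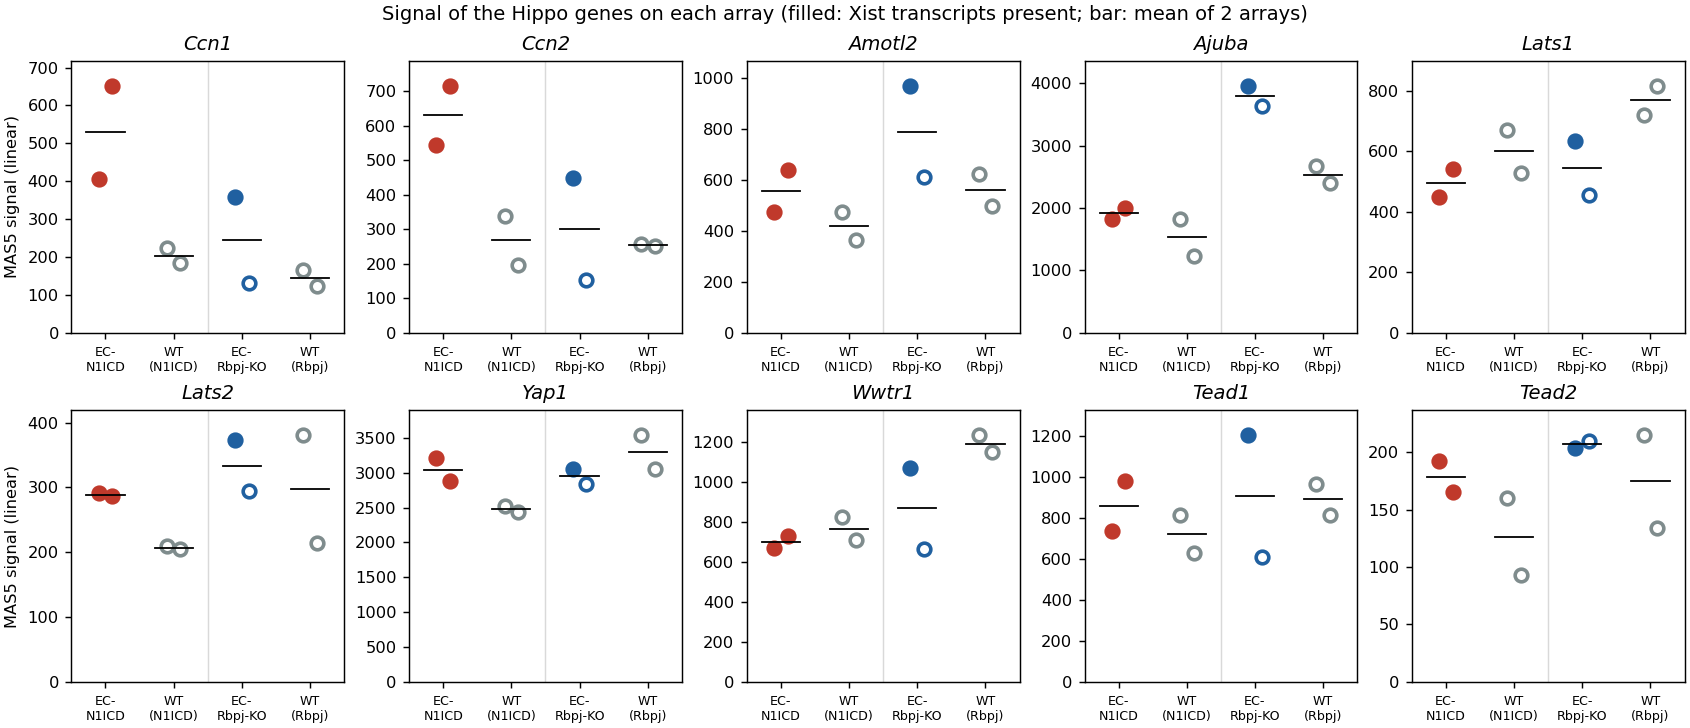
MAS5 signal (linear scale from 0, a separate axis for each gene) of the 10 Hippo genes on each of the 8 arrays; each circle is 1 array, black bars are means of the 2 arrays of a group, and filled circles are the 3 arrays with Xist transcripts. Ccn1 and Ccn2 were high on the 3 filled arrays and low on the 5 open ones, while Yap1 stayed between 2441 and 3541 on every array.

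Because the TEAD factors are read out through their target promoters, the windows around TEAD-type letters in the members' promoters are shown here. GGAATG, the core of the motif that TEAD factors bind, was searched on both strands in the 250 bases before each start site of the RefSeq table (build GRCm38.p6). That table lists 8 of the 10 genes and has no entry for Ccn2 and Tead1, which were not searched. GGAATG was found for 5 of the 8, Ccn1, Amotl2, Ajuba, Yap1 and Wwtr1, beside 14.4% of the 27025 genes in the table. None of the 8 had GTGGGAA, the core letters bound by RBPJ, in these 250 bases, and 6.18% of all genes did. A match is a description of the letters and was not tested as a binding site. The 4 windows below run from 30 bases before the first match to 30 after the last, on the strand of the gene, with the match in capitals (CATTCC is GGAATG on the other strand). The windows lie at chr3:145650053-145650118 (minus strand) for Ccn1, chr14:54577790-54577877 (minus) for Ajuba, chr9:8004702-8004767 (minus) for Yap1 and chr3:57576011-57576076 (minus) for Wwtr1. The match of Ccn1 begins 103 bases before the start site, those of Ajuba 186 and 164 bases before it, and that of Yap1 141 bases before it. Wwtr1 has 2 start sites in the table, 136 and 170 bases after the beginning of the same match.
Ccn1: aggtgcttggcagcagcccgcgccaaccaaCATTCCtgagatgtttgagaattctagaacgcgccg
Ajuba: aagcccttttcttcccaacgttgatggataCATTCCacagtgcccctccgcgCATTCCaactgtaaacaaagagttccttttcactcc
Yap1: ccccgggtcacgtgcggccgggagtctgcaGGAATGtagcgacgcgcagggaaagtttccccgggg
Wwtr1: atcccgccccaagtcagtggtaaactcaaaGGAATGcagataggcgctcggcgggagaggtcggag

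Ccn1 and Ccn2 encode secreted proteins of the extracellular matrix that bind integrins and act on endothelial and mesenchymal cells. The study listed both among genes it had sorted on these same arrays, so their direction here is no independent evidence of it. Ccn1 gave signals of 407 and 652 for the EC-N1ICD yolk sacs, against 223 and 185 for wild type. The groups did not overlap, and the difference was 2.54-fold (95% confidence interval 1.40 to 4.60; log2 change 1.34, SE 0.39, n = 2 arrays a group). By limma its unadjusted p was 0.00546 and its adjusted p 0.177. With only the 4 arrays of the EC-N1ICD set in the fit the limma adjusted p was 0.0308, and over all alternatives that p ran from 0.0308 to 0.948. It was 0.0379 without EC-Rbpj-KO replicate 1 and 0.0360 without EC-Rbpj-KO replicate 2, arrays that enter this comparison through the shared estimate of the spread alone. In the EC-Rbpj-KO set, Ccn1 had signals of 359 and 132 on the mutant arrays, against 167 and 123 for wild type. One mutant array stood above the other 3 and the second lay between the wild type arrays (log2 change 0.60, 95% confidence interval -0.26 to 1.46, limma adjusted p = 0.424). Without EC-Rbpj-KO replicate 2 the log2 change was 1.32 with a limma adjusted p of 0.0398, and without EC-Rbpj-KO replicate 1 it was -0.12, so a single array decides the value in this model. Replicate 1 is also the array of this set whose sample name begins with another number.

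Ccn1 was read by 4 probe sets, and for all 4 both EC-N1ICD values exceeded both wild type values. The folds were 2.54 for the brightest probe set, whose name marks it as one that may also bind similar sequences, and 2.69, 2.74 and 2.18 for the 3 others in order of brightness. The 2 dimmest lay above the median of the array, 38 to 51, on 2 and 1 of the 8 arrays. In the EC-Rbpj-KO set the 4 folds were 1.52, 1.49, 1.19 and 1.32, and the replicate 1 mutant array was the highest of the 4 arrays on each probe set.

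Ccn2 was read by 1 probe set, with signals of 545 and 716 for the EC-N1ICD yolk sacs, against 338 and 198 for wild type. The groups did not overlap, and the difference was 2.41-fold (95% confidence interval 1.30 to 4.50; log2 change 1.27, SE 0.41, n = 2 a group). By limma its unadjusted p was 0.00966 and its adjusted p 0.214, which ran from 0.0399 to 0.823 over the alternatives. It passed the threshold without EC-Rbpj-KO replicate 1 (limma adjusted p = 0.0426) and without EC-Rbpj-KO replicate 2 (0.0399). In the EC-Rbpj-KO set its signals were 450 and 152 on the mutant arrays, against 258 and 252 for wild type. The mutant arrays stood on either side of the wild type arrays, and the log2 change was 0.04 (95% confidence interval -0.86 to 0.93, limma adjusted p = 0.977). It was -0.75 without EC-Rbpj-KO replicate 1 and 0.82 without EC-Rbpj-KO replicate 2. The change of Ccn2 differed between the models by 1.24 on the log2 scale (95% confidence interval -0.03 to 2.51, unadjusted p = 0.0556, adjusted p = 0.482), and that of Ccn1 by 0.74 (-0.48 to 1.96, limma adjusted p = 0.674).

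**Figure D2:**
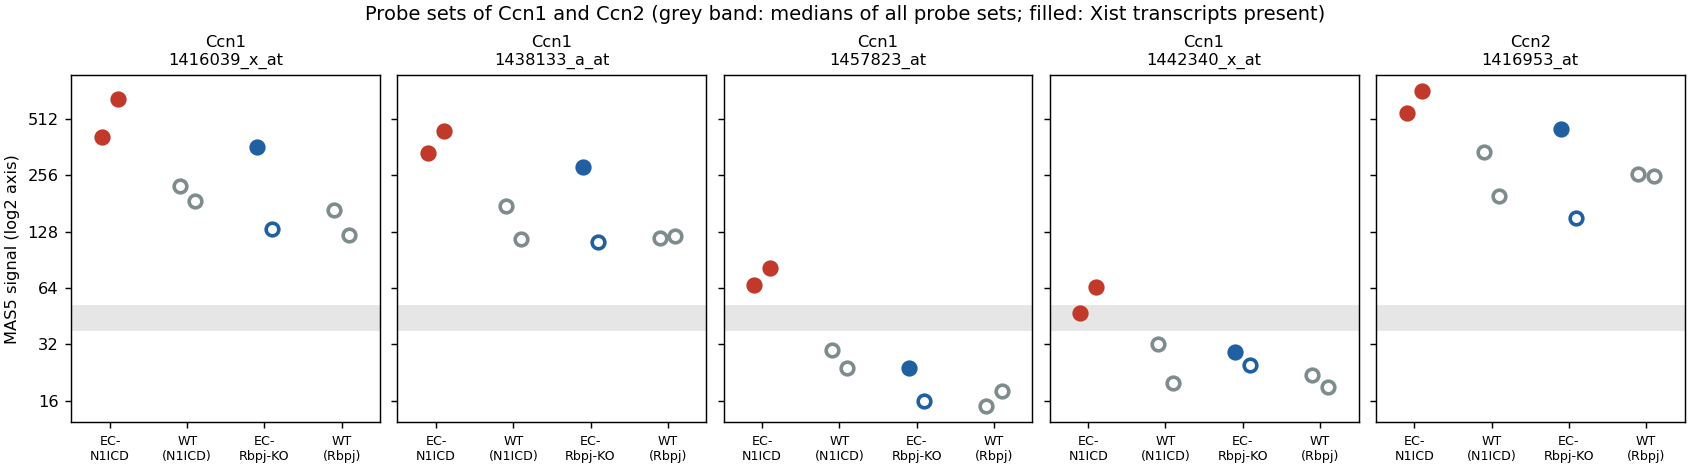
MAS5 signal (log2 axis) of the 4 probe sets of Ccn1 and the 1 probe set of Ccn2 on each array; each circle is 1 array, filled where Xist transcripts were present, and the grey band spans the medians of all probe sets, 38 to 51. Both EC-N1ICD arrays lie above both of their wild type arrays in all 5 panels, and the 2 EC-Rbpj-KO arrays lie apart on the brighter probe sets of Ccn1 and on Ccn2.

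The arrays on which Ccn1 and Ccn2 were high were those with transcripts of Xist, the RNA made from the inactive X chromosome of females. Xist gave signals of 3600 and 3730 for EC-N1ICD and 2005 for replicate 1 of EC-Rbpj-KO, and 77 to 96 on the other 5 arrays, on which the Y-linked Eif2s3y had signals of 702 to 870. In the EC-N1ICD set sex and genotype therefore cannot be told apart. Ccn1 had signals of 407, 652 and 359 on the 3 arrays with Xist and of 123 to 223 on the 5 others, and Ccn2 had 545, 716 and 450 on the 3 arrays and 152 to 338 on the 5 others. This split of the arrays was set up after the values were seen. All 3 arrays with Xist lay above all 5 others for 2 of the 10 members, Ccn1 and Ccn2, and for 2.31% of all genes tested. With sex as a term in the fit, which then rests on the 2 EC-Rbpj-KO arrays alone, the log2 change in EC-N1ICD was -0.10 for Ccn1 and -0.29 for Ccn2. The same split held for 4 of the 11 immediate early genes tested, genes that cells switch on within minutes of a stimulus or of handling: Jun, Egr1, Ier3 and Atf3. Jun, a subunit of the AP-1 factor, had signals of 266, 342 and 226 on the 3 arrays and 70 to 133 on the 5 others, and Egr1, a zinc finger factor, had 237, 310 and 249 against 83 to 142. The part of sex and of the immediate early response in the values of Ccn1 and Ccn2 was not tested.

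Ajuba and Amotl2 encode adaptors of cell junctions. AJUBA and its LIM-domain relatives bind LATS kinases and restrain them, and AMOTL2, of the angiomotin family, binds YAP and TAZ outside the nucleus and is itself a YAP target in human cells. Ajuba gave signals of 3958 and 3638 for the EC-Rbpj-KO yolk sacs, against 2668 and 2393 for wild type. These groups did not overlap, and the difference was 1.50-fold (95% confidence interval 1.15 to 1.97, log2 change 0.59, SE 0.18, unadjusted p = 0.00680, adjusted p = 0.0864). The limma adjusted p was 0.0312 after quantile normalization, 0.0352 without EC-N1ICD wild type replicate 1 and 0.0341 without EC-N1ICD wild type replicate 2, and it ran from 0.0312 to 0.412 over the alternatives. Ajuba had 1829 and 2007 for EC-N1ICD, against 1832 and 1226 for wild type (log2 change 0.35, limma adjusted p = 0.477), where the groups overlapped. Amotl2 had 473 and 639 for EC-N1ICD, against 474 and 364 for wild type (log2 change 0.40, limma adjusted p = 0.589). In the EC-Rbpj-KO set it had 969 and 610 in the mutant, against 624 and 496 for wild type (log2 change 0.47, limma adjusted p = 0.325). Amotl2 overlapped with wild type in both models, and its 95% intervals reached from 0.91- to 1.93-fold in EC-N1ICD and from 0.95- to 2.02-fold in EC-Rbpj-KO.

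Lats1 and Lats2 encode the kinases that phosphorylate YAP and TAZ, and Lats2 is also described as a YAP target that closes a feedback loop. Lats1 gave signals of 633 and 457 for the EC-Rbpj-KO yolk sacs, against 721 and 817 for wild type. Both mutant arrays were lower (log2 change -0.51, 95% confidence interval -0.96 to -0.06, unadjusted p = 0.0294, adjusted p = 0.191). A second, dimmer probe set of Lats1 had 18 and 58 for EC-Rbpj-KO, against 75 and 126 for wild type, which was lower again (log2 change -1.59, limma adjusted p = 0.105 with every probe set as its own row). In EC-N1ICD Lats1 had 450 and 543, against 671 and 530 for wild type, and the arrays overlapped (log2 change -0.27, limma adjusted p = 0.686). Lats2 had 291 and 286 for EC-N1ICD, against 209 and 205 for wild type, close pairs that did not overlap (1.39-fold, 95% confidence interval 0.95 to 2.05, limma adjusted p = 0.505). In EC-Rbpj-KO Lats2 had 373 and 294, against 381 and 215 for wild type (log2 change 0.21, limma adjusted p = 0.696), and both mutant values lay between the 2 wild type values. The name of this brightest probe set of Lats2 marks it as one that may also bind similar sequences. The 5 dimmer probe sets of Lats2 gave folds in EC-N1ICD of 1.03 to 1.20, below the 1.39 of the brightest. The next in brightness had 116 and 93 for EC-N1ICD, against 103 and 99 for wild type, and overlapped.

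Yap1 and Wwtr1 encode the coactivators. Yap1 gave signals of 3209 and 2880 for the EC-N1ICD yolk sacs, against 2527 and 2441 for wild type. Both mutant arrays were higher by a small amount (1.22-fold, 95% confidence interval 1.01 to 1.49, unadjusted p = 0.0430, adjusted p = 0.398). In the EC-Rbpj-KO set Yap1 had 3055 and 2842 in the mutant, against 3541 and 3046 for wild type, which overlapped (log2 change -0.16, limma adjusted p = 0.540). Of the 10 members Yap1 had the smallest p for a difference between the models, 0.45 on the log2 scale (95% confidence interval 0.05 to 0.85, unadjusted p = 0.0302, adjusted p = 0.394). At an unadjusted p under 0.05 it was 1 of 10 members, beside 10.8% of all genes, and 0.266% of all genes passed an adjusted p of 0.05 for that difference. The second probe set of Yap1 gave folds of 1.22 for EC-N1ICD and 1.19 for EC-Rbpj-KO, and it did not show the lower value of EC-Rbpj-KO.

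Wwtr1 gave signals of 1070 and 667 for the EC-Rbpj-KO yolk sacs, against 1235 and 1148 for wild type. Both mutant arrays were lower, by unequal amounts (log2 change -0.50, 95% confidence interval -0.96 to -0.03, unadjusted p = 0.0383, adjusted p = 0.218). Without EC-Rbpj-KO replicate 1 the log2 change was -0.84 with a limma adjusted p of 0.0298, and without EC-Rbpj-KO replicate 2 it was -0.15. The 2 other probe sets of Wwtr1 gave folds of 1.07 and 1.16 in EC-Rbpj-KO and thus did not share the lower value. In EC-N1ICD Wwtr1 had 669 and 732, against 822 and 708 for wild type (log2 change -0.12, limma adjusted p = 0.889), with overlapping arrays.

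Tead1 and Tead2 encode DNA-binding partners of YAP and TAZ. Tead1 had 736 and 981 for EC-N1ICD, against 815 and 627 for wild type (log2 change 0.25, limma adjusted p = 0.822). It had 1206 and 610 for EC-Rbpj-KO, against 967 and 816 for wild type (log2 change -0.05, limma adjusted p = 0.946), so that the mutant arrays lay outside the wild type arrays on both sides. Tead2 had 192 and 165 for EC-N1ICD, against 160 and 93 for wild type, which did not overlap (log2 change 0.55, 95% confidence interval -0.10 to 1.19, limma adjusted p = 0.516). It had 204 and 210 for EC-Rbpj-KO, against 215 and 134 for wild type (log2 change 0.29, limma adjusted p = 0.636). The intervals of both genes leave room for changes of up to 1.83-fold (Tead1) and 2.28-fold (Tead2) in EC-N1ICD.

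**Figure D3:**
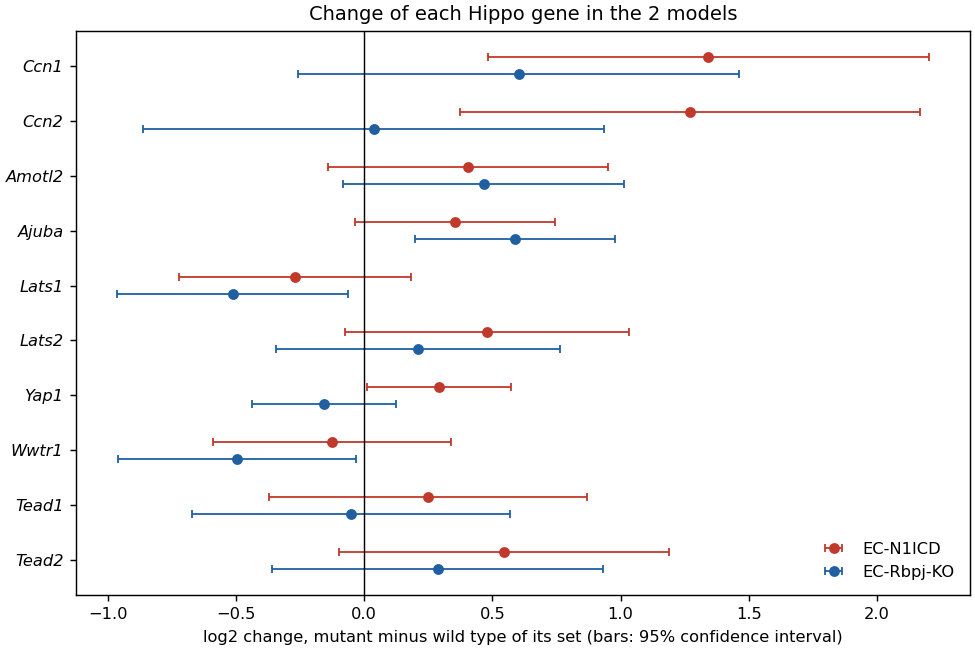
Log2 change of each Hippo gene, mutant minus the wild type of its own set, for EC-N1ICD (upper, red) and EC-Rbpj-KO (lower, blue), with 95% confidence intervals from limma over 2 arrays a group. The intervals of Ccn1, Ccn2 and Yap1 in EC-N1ICD and of Ajuba, Lats1 and Wwtr1 in EC-Rbpj-KO do not reach 0, and no member passed the adjusted threshold.

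Of the other genes of the pathway 2 were called, Amot and Lin7c, and both fell in EC-Rbpj-KO. Of 33 further Hippo genes listed, 31 were matched to a probe set and 28 tested, and 0 passed a limma adjusted p of 0.05 in EC-N1ICD, beside 0.596% of all genes. There 3 of the 28 were higher and 0 lower at an unadjusted p under 0.05, beside 12.0% of all genes, and the methods' t-test called 0 genes in all. In EC-Rbpj-KO 2 of the 28 fell and 0 rose, beside 4.96% of all genes, and at an unadjusted p under 0.05 1 was higher and 4 lower, beside 19.9%. These counts were near the shares of all genes. Amot, on the X chromosome, encodes angiomotin, the founding member of the family of AMOTL2, which holds YAP at junctions and was first described as a receptor for angiostatin in endothelial cells. It gave signals of 2831 and 2887 for the EC-Rbpj-KO yolk sacs, against 5311 and 6304 for wild type, a log2 change of -1.02 (limma adjusted p = 0.00192). The fall was alike on the EC-Rbpj-KO array with Xist and on the one without. In EC-N1ICD Amot had 5403 and 4518, against 4428 and 3948 for wild type, which did not overlap (log2 change 0.24, limma adjusted p = 0.517). The changes of Amot differed between the models by 1.26 on the log2 scale (limma adjusted p = 0.0241), and that call was lost, among others, without EC-N1ICD replicate 1 (0.126), EC-N1ICD wild type replicate 1 (0.0849) or replicate 2 (0.121), or EC-Rbpj-KO wild type replicate 2 (0.0814). The fall itself kept an adjusted p under 0.05 without each array in turn. It was lost with the mean of all probe sets (limma adjusted p = 0.0812), in which 2 dim probe sets of Amot, with signals of 21 to 56, weigh as much as the bright one.

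Lin7c encodes a scaffold protein of the junctional complex that holds CRUMBS and PALS1. It fell to 2371 and 1781 for the EC-Rbpj-KO yolk sacs, against 2978 and 3459 for wild type (log2 change -0.64, limma adjusted p = 0.0452). Its 3 other probe sets gave folds of 0.79, 0.96 and 0.85, and the call was kept in 8 of 20 alternatives. It was lost without any 1 array except EC-Rbpj-KO replicate 1, with limma adjusted p-values up to 0.331. Among the upstream genes and kinases, 0 of 14 were called in either model. The smallest p-values there belonged to Frmd6, a FERM-domain regulator (log2 change 0.55 in EC-N1ICD, limma adjusted p = 0.360), to Map4k4, a kinase that can phosphorylate LATS (0.41 in EC-N1ICD, limma adjusted p = 0.391, and -0.44 in EC-Rbpj-KO, limma adjusted p = 0.198), and to Wwc1, which encodes KIBRA (-0.38 in EC-Rbpj-KO, limma adjusted p = 0.193). Among the junction and LIM genes the polarity gene Llgl1 had the smallest p in EC-N1ICD (log2 change 0.37, limma adjusted p = 0.499). Of the nuclear partners 3 were tested and 0 were called, with log2 changes of 0.59 for Tead3 in EC-N1ICD (limma adjusted p = 0.333), -0.29 for Tead4 in EC-Rbpj-KO (0.428), and for Vgll4, which competes with YAP for TEAD, -0.25 with EC-N1ICD (0.627) and -0.18 with EC-Rbpj-KO (0.602).

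A wider list of 19 genes described as YAP and TAZ targets in human cells, of which 18 were tested, had 2 that rose and 0 that fell in EC-N1ICD, and 2 that rose and 2 that fell in EC-Rbpj-KO. Calls made up 0.596% of all genes tested for the first model and 4.96% for the second. The list had a median log2 change of 0.29 for EC-N1ICD, beside 0.01 over all genes. For EC-Rbpj-KO its median was 0.30, beside -0.02 over all genes. Some of its genes (Ankrd1, Igfbp3 and Tgfb2) were also listed by the study from these same arrays, so their direction is not independent evidence. Ankrd1, a stress-responsive gene of muscle and endothelium, rose to 243 and 218 for the EC-N1ICD yolk sacs, against 25 and 34 for wild type (7.89-fold, limma adjusted p = 0.0124). Both wild type signals lay below the array medians, so the size of that fold is limited by background. The lowest mean signal over the 8 arrays that the filter kept was about 68. Ankrd1 passed it only through the 2 EC-N1ICD arrays, as its signals elsewhere were 12 to 40. Its call, 1 of the 2 rises counted above, thus belongs to a gene that was kept through the group compared. With sex in the fit the log2 change of Ankrd1 in EC-N1ICD was 2.05 and its call was lost (limma adjusted p = 0.242). The call was lost without any 1 of the 4 arrays of the set, with limma adjusted p-values of 0.0502 to 0.183. In EC-Rbpj-KO Ankrd1 had 40 and 21, against 12 and 17 for wild type, all at or below the array medians. The study had sorted Ankrd1 under positive regulation by Notch and Rbpj, and the mutant values here were not lower.

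Igfbp3, which encodes a secreted binding protein of insulin-like growth factors, rose in both models. It had 985 and 981 for EC-N1ICD, against 261 and 234 for wild type (3.98-fold, limma adjusted p = 0.00242), and 1260 and 818 for EC-Rbpj-KO, against 272 and 241 for wild type (3.97-fold, limma adjusted p = 0.000661). These calls held without each array in turn. The call in EC-N1ICD was lost with sex in the fit (log2 change 1.37, limma adjusted p = 0.108). Tgfb2, a TGF-beta ligand, had 201 and 227 for EC-N1ICD, against 65 and 99 for wild type, which did not overlap (log2 change 1.41, limma adjusted p = 0.159). In EC-Rbpj-KO Tgfb2 had 70 and 112, against 96 and 42 for wild type, which overlapped (log2 change 0.48, limma adjusted p = 0.538). It was named after its values were seen.

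In EC-Rbpj-KO, Ccdc80, a matrix protein gene, rose to 1234 and 1157, against 754 and 632 for wild type (1.73-fold, limma adjusted p = 0.0184), a call that was lost without wild type replicate 1 (0.0577) or replicate 2 (0.193). Fjx1, which encodes the relative of the fly Hippo regulator four-jointed, fell to 56 and 65 for EC-Rbpj-KO, against 116 and 127 for wild type (log2 change -1.01, limma adjusted p = 0.0409). In EC-N1ICD Fjx1 had 134 and 129, against 70 and 86 for wild type (log2 change 0.76, limma adjusted p = 0.220), and the difference of its changes between the models was 1.77 (limma adjusted p = 0.0743). Dock5, an activator of RAC, fell to 89 and 105 for EC-Rbpj-KO, against 177 and 174 for wild type (log2 change -0.86, limma adjusted p = 0.0339). The calls of Fjx1 and Dock5 were kept in 7 and 8 of 19 alternatives, and each was lost without either wild type array of the set, with limma adjusted p-values of 0.137 and 0.251 for Fjx1 and 0.158 and 0.185 for Dock5. They were also lost without EC-N1ICD replicate 1 (0.0765 for Fjx1, 0.0616 for Dock5), EC-N1ICD replicate 2 (0.0756, 0.0620) or EC-Rbpj-KO replicate 1 (0.0982, 0.0928), and Fjx1 also without EC-Rbpj-KO replicate 2 (0.0634). Of the other members of the CCN family, Ccn4 was the 1 of 4 that passed the filter, with log2 changes of 0.05 in EC-N1ICD (limma adjusted p = 0.967) and -0.27 in EC-Rbpj-KO (0.488).

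**Figure D4:**
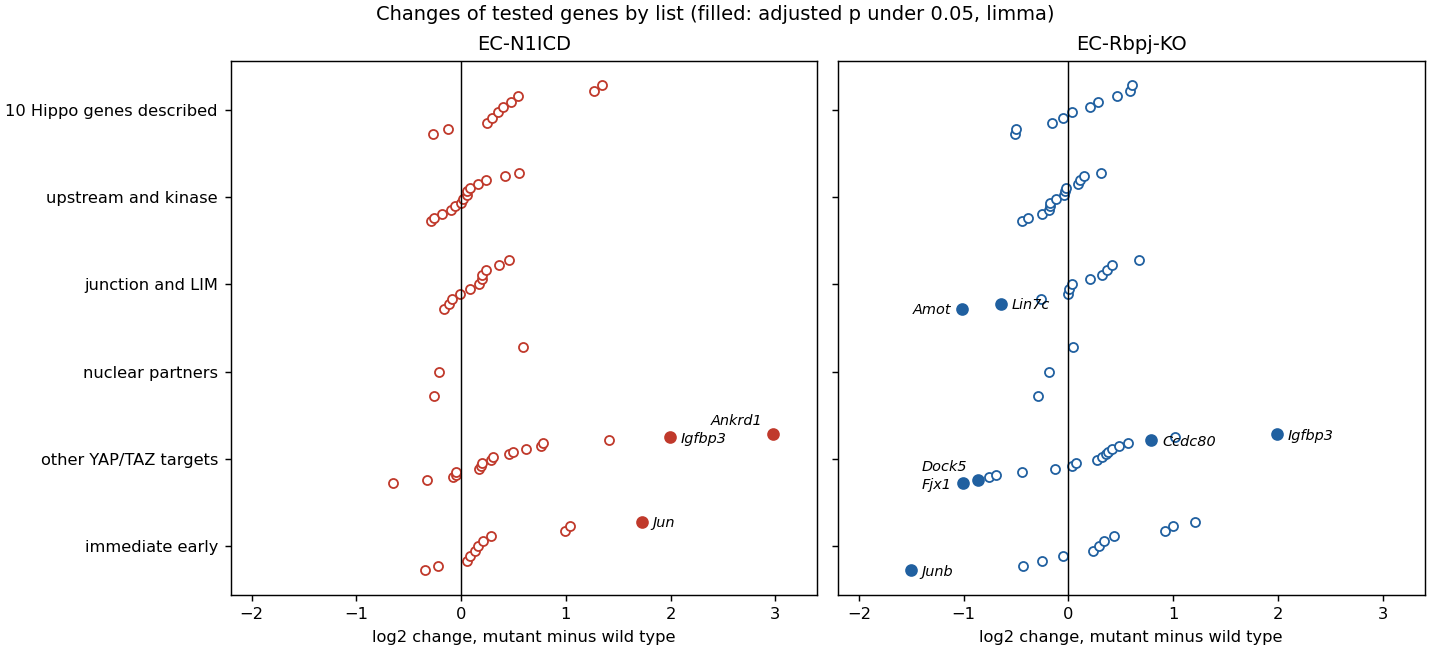
Log2 change, mutant minus wild type, of the tested genes of each list in EC-N1ICD (left) and EC-Rbpj-KO (right); each circle is 1 gene, and filled circles with names passed a limma adjusted p of 0.05. None of the 10 Hippo genes in the top row is filled in either model, Amot and Lin7c are filled on the left of 0 in EC-Rbpj-KO, and Igfbp3 is filled near 2 in both models.

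Among the immediate early genes 1 of 11 rose in EC-N1ICD, Jun (3.30-fold, limma adjusted p = 0.0364), and 1 fell in EC-Rbpj-KO, Junb (32 and 64 for EC-Rbpj-KO, against 123 and 134 for wild type; log2 change -1.50, limma adjusted p = 0.0499). Junb passed the filter only through the EC-Rbpj-KO wild type arrays, as its signals elsewhere were 32 to 71. Its mean signal was 68.75, where the lowest mean that the filter kept was 68. The call of Junb thus belongs to a gene that was kept through the group it was compared with. With no filter its limma adjusted p was 0.0618. Jun had a log2 change of 1.21 in EC-Rbpj-KO (limma adjusted p = 0.0516), and Ier3 one of 0.99 in EC-N1ICD (0.141). The call of Jun was lost without any 1 of the 4 arrays of its set (limma adjusted p-values of 0.0693 to 0.183), and that of Junb without any 1 array except EC-Rbpj-KO replicate 2 (0.0532 to 0.246). Of 5 Notch target genes 3 were tested, with 2 that rose in EC-N1ICD and 1 that rose in EC-Rbpj-KO. As a background for both short lists, 0.596% of all genes were called with gain of function and 4.96% with loss of function. Nrarp, a feedback inhibitor of Notch, rose to 3112 and 2648 for EC-N1ICD, against 735 and 628 for wild type (4.23-fold, limma adjusted p = 0.000385), and to 1598 and 1514 for EC-Rbpj-KO, against 855 and 1001 (1.68-fold, limma adjusted p = 0.0222). The call in EC-Rbpj-KO was lost without EC-Rbpj-KO replicate 1 (0.0548) or either wild type array (0.162 and 0.0772). Hey1, a repressor induced by Notch, rose 2.51-fold in EC-N1ICD (limma adjusted p = 0.0364), a call that was lost without any 1 array of the set (0.0665 to 0.379) or without EC-Rbpj-KO wild type replicate 2 (0.0506). Hes1 had a log2 change of -0.41 in EC-Rbpj-KO (limma adjusted p = 0.262).

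The genes whose pattern over the 8 arrays was most like that of Ccn1, with each array taken relative to the wild type mean of its set, were Zfp871, Atg4b, Ap4m1, Cables1 and Pja2 (Pearson r of 0.97 for the first and 0.96 for the other 4). For Ccn2 they were Lypla1, Ppp2r5c, Rnf169, Pcgf5 and Mob3a (r of 0.98 to 0.99). Ccn1 and Ccn2 had an r of 0.91 with each other. None of these 10 genes was called in EC-N1ICD, and their log2 changes there ran from 0.17 for Lypla1 to 0.84 for Cables1. These correlations describe 8 arrays that fall into 4 groups, and 3 of the arrays share the presence of Xist.

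Markers of other cells differed between the groups as well. For the counts of called markers below, the background was 4.96% of all genes with EC-Rbpj-KO, against 0.596% with EC-N1ICD. The summed signal of 5 smooth muscle markers was 18587 and 17502 for EC-N1ICD, against 8975 and 10527 for wild type, and 2 of the 3 tested rose. Most of that sum was Acta2 (14640 and 13687 for EC-N1ICD, against 7480 and 8684 for wild type), while Myh11, which lay below the filter, was lower (33 and 72, against 103 and 108 for wild type; log2 change -1.11, limma unadjusted p = 0.0142 in the fit without the filter). In EC-Rbpj-KO the sum of the smooth muscle markers was 3186 and 4292, against 3181 and 3242 for wild type, with 0 called. Of 5 cardiomyocyte markers, which summed to 2760 and 2196 for EC-N1ICD, against 486 and 635 for wild type, 2 were tested and 1 rose, and their sums were 187 and 302 for EC-Rbpj-KO, against 215 and 221 for wild type, with 0 of 2 called. Macrophage markers summed to 1888 and 1422 for EC-N1ICD, against 1029 and 1047 for wild type, with 0 of 5 called, and to 3118 and 2578 for EC-Rbpj-KO, against 1413 and 966 for wild type, where 3 of 5 rose and 1 fell. Most of the sum in EC-Rbpj-KO was Csf1r (2497 and 1935), and the marker that fell was Cd68 (108 and 164, against 255 and 255 for wild type). Cx3cr1 passed the filter only through the 2 EC-Rbpj-KO arrays (246 and 221, with 26 to 87 elsewhere). The 8 endothelial markers summed to 2618 and 2538 for EC-N1ICD, against 3187 and 2219 for wild type, with 0 of 6 called, and to 2705 and 1891 for EC-Rbpj-KO, against 1465 and 1479 for wild type, where 1 of 6 rose. The largest part of that difference in EC-Rbpj-KO was Cldn5, the marker called (1095 and 715, against 302 and 273 for wild type; log2 change 1.62, limma adjusted p = 0.00369). Tek, the gene of the Tie2 receptor, went the other way in EC-Rbpj-KO, with 187 and 181, against 276 and 336 for wild type (log2 change -0.73, unadjusted p = 0.00939, limma adjusted p = 0.103). The 5 primitive erythroid markers summed to 46515 and 78072 for EC-N1ICD, against 88039 and 92945 for wild type, with 0 of 5 called although all 5 were lower at an unadjusted p under 0.05, and to 53268 and 64693 for EC-Rbpj-KO, against 66751 and 65330 for wild type, with 0 of 5 called. Of the 6 extraembryonic mesoderm markers 0 were called in EC-N1ICD and 1 fell in EC-Rbpj-KO, and of the 6 visceral endoderm markers 0 were called in either model. Pecam1 and Emcn, endothelial markers, lay below the filter, and the visceral endoderm markers that define yolk sac gave sums of 113456 to 126761 on all arrays. No marker was at 0 on this scale, whose lowest signal is 7. The ratio of 3' to 5' signal of Actb, a sign of RNA quality, was 1.72 and 1.75 for EC-N1ICD, against 2.10 and 2.34 for wild type, and 2.29 and 2.09 for EC-Rbpj-KO, against 1.90 and 1.84 for wild type. The same ratio of Gapdh was 2.43 and 2.48 for EC-N1ICD, against 3.12 and 2.76 for wild type, and 4.64 and 3.45 for EC-Rbpj-KO, against 3.17 and 3.51 for wild type. EC-Rbpj-KO replicate 1, the mutant array of that set with the higher Ccn1 and Ccn2, had the highest Gapdh ratio of the 8. The 2 EC-N1ICD arrays, on which Ccn1 and Ccn2 were highest of all, had the lowest ratios of Actb and of Gapdh. Ccn1 and Ccn2 are expressed by smooth muscle and mesenchyme in many tissues, and the part of these cells and of RNA quality in their values was not tested.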

How the data were processed

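RNA of yolk sac tissue was labelled with biotin by in vitro transcription from oligo-dT primed cDNA and hybridised to Affymetrix mouse arrays. The intensity values, linear signals per probe set, were made by the authors with MAS5 before deposit (version and scaling target not given in the sources used here), without detection calls. Of 45101 probe sets, 34958 name 1 gene, and the one with the highest mean signal was used per gene. The array annotation is that of the 430 2.0 platform, while the methods name the 430 A array. Genes at or below the 40th percentile of mean signal were left out, which kept 10913.

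limma 3.58.1 (R 4.3.3) was run on log2 signals of the 4 groups (eBayes with trend, 4 residual and 7.37 prior degrees of freedom). The contrasts were EC-N1ICD and EC-Rbpj-KO, each minus its own wild type, and the difference of these 2 changes, two-sided, with Benjamini-Hochberg adjustment at 0.05. An exact permutation test of 2 against 2 arrays cannot give a p below 0.333, so none is reported. The fit was tested on simulated data. With 2 arrays a group, their number limits the precision.

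The members and gene lists were chosen with earlier results of these data known. Named genes were all members, Rbpj, and from each pathway list the called genes and the 2 with the smallest p in each comparison. Tgfb2, Egr1, Atf3, Rassf1 and the markers were named after their values were seen. Alternatives changed the offset, filter, scaling, probe set rule, variance trend, test, arrays and a block on the number that leads the sample name, and added sex, read from Xist and Y-linked transcripts. Tp53bp2 and Stk3 were not analysed here.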

Additional observations from a re-analysis of the deposited data

Results flagged for a closer look

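For 3 of the 28 other Hippo genes tested, mutant and wild type arrays did not overlap in either model and the change went opposite ways. Of all genes, 23.7% lay above wild type without overlap and 18.9% below in EC-N1ICD, and 23.3% above and 27.5% below in EC-Rbpj-KO. The share of all genes with opposite changes in the 2 models was not counted, so the 3 of 28 are not read as a result about Hippo genes. Amot was picked out by the test of the difference between the models, 1.26 on the log2 scale (EC-N1ICD change minus EC-Rbpj-KO change, limma adjusted p = 0.0241). Map4k4 had 1198 and 1149 for EC-N1ICD, against 941 and 823 for wild type, and 524 and 388 for EC-Rbpj-KO, against 594 and 629 for wild type, so that every array moved up in the first and down in the second. The difference of its log2 changes was 0.85 (unadjusted p = 0.00603, adjusted p = 0.265) and did not pass the threshold. Rassf1, a scaffold of the MST kinases, had 1043 and 1246 for EC-N1ICD, against 1350 and 1433 for wild type, and 1189 and 1303 for EC-Rbpj-KO, against 1145 and 1162 for wild type. The difference of its log2 changes was -0.40 (unadjusted p = 0.0886, adjusted p = 0.552) and did not pass the threshold either.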

How the results depend on the processing

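With 2 arrays a group, 1 array can decide a value. The cause of each shift below was not tested. The count of called genes in EC-N1ICD, 65, was 27 with the filter at the 60th percentile, 105 with median centring, 119 with quantile normalization, 15 with sex in the fit, 103 with only the arrays of the set, 0 by the methods' t-test (939 genes at an unadjusted p under 0.05), and 7 to 140 with 1 array left out. In EC-Rbpj-KO the count, 541, was 266 with only the arrays of the set, 1 by the t-test, and 147 to 628 with 1 array left out. For the difference between the models the count, 29, was 44 with median centring, 6 with the mean of all probe sets, 3 without the variance trend, 71 with sex in the fit, and 5 to 80 with 1 array left out. The count of members called, 0 in each comparison, was 1 in EC-N1ICD with only the arrays of the set, 1 in EC-Rbpj-KO with quantile normalization (Ajuba) and 1 with sex in the fit (Wwtr1), and with 1 array left out 0 to 2 in EC-N1ICD and 0 to 1 in EC-Rbpj-KO. Sex in the fit turned the log2 change in EC-N1ICD to -0.10 for Ccn1, -0.29 for Ccn2, -0.26 for Amotl2 and -0.73 for Tead1, that in EC-Rbpj-KO to -0.12 for Ccn1 and -0.75 for Ccn2, and the difference between the models to -0.19 for Tead1. In EC-Rbpj-KO Ccn2 was -0.032 with median centring, Yap1 was 0.045 and Tead1 0.036 with the mean of all probe sets, and Tead1 was 0.031 with quantile normalization. With 1 array left out, the log2 change in EC-Rbpj-KO ran from -0.12 to 1.32 for Ccn1, -0.75 to 0.82 for Ccn2, -0.20 to 0.62 for Lats2, -0.54 to 0.44 for Tead1 and -0.055 to 0.63 for Tead2. The difference between the models then ran from -0.40 to 0.27 for Amotl2, -0.52 to 0.057 for Ajuba, -0.14 to 0.68 for Lats2, -0.19 to 0.79 for Tead1 and -0.13 to 0.65 for Tead2. The called Hippo, target, immediate early and Notch genes that are not members, and Rbpj, lost their calls in each model under the methods' t-test (adjusted p from 0.340 for Rbpj to 0.582 for Jun). With the number that leads the sample name as a replicate block, chosen after the data were seen, each change rests on mutant replicate 2 and the fit keeps 2 residual degrees of freedom. With this block 26 genes were called in EC-N1ICD, 430 in EC-Rbpj-KO and 18 for the difference between the models, and 1 member each in EC-N1ICD (Ccn1, limma adjusted p = 0.0414) and EC-Rbpj-KO (Wwtr1, 0.0474). The block turned the log2 change in EC-Rbpj-KO to -0.12 for Ccn1 and -0.75 for Ccn2 and the difference between the models to 0.49 for Amotl2. The calls of Fjx1, Dock5, Ccdc80, Junb and Nrarp in EC-Rbpj-KO, of Jun and Hey1 in EC-N1ICD, and of Amot for the difference were lost under the block. The alternatives for the genes that are not members were added after the data were seen. Dim probe sets near the array medians limit the folds of Ankrd1, Junb and the second probe sets of Lats1 and Lats2.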
